A study of Mus musculus with 4 samples.

Results

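Cytosolic ribosomal protein genes were examined as a family in mouse macrophages. Members were taken by gene symbol (Rpl or Rps followed by a number and any suffix, the stalk genes Rplp0, Rplp1 and Rplp2, and Rpsa) with the requirement of at least 1 protein-coding transcript in the annotation, which gave 84 of 55536 genes. They divide into 43 proteins of the large subunit, 31 of the small subunit, the 3 stalk proteins and 7 paralogues (Rpl3l, Rpl7l1, Rpl10l, Rpl22l1, Rpl36al, Rpl39l and Rps27l). A further 6 symbols of the same form, among them Rps4l, had no coding transcript and stayed out. The 77 members outside the paralogue list are called the standard set here; ribosomal proteins whose genes carry other symbols, such as Fau of the small subunit, are not among them.

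The cells were macrophages differentiated in culture from C57BL/6J bone marrow, and their polyA RNA was sequenced in 1 group of 4 biological replicate libraries. By the sample descriptions the cells had met 100 ng/mL Lipid A, the TLR4-binding moiety of lipopolysaccharide, for 12 h, were then washed free of it for 12 h, and met it again at 100 ng/mL for 60 min, whereas the source names speak of lipoprotein A and mention no washout. All 4 libraries shared this treatment and carry 1 donor identifier, sex and age were not collected, and cells without treatment are not analysed here. No level below is therefore a response to Lipid A, and the comparisons are among genes, among libraries and between the 2 quantifications that were deposited for each library.

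The ribosome is built from ribosomal RNA and about one copy of each ribosomal protein, the small subunit reading the message and the large subunit joining amino acids. The stalk, formed by Rplp0 with Rplp1 and Rplp2, recruits the elongation factors. Ribosomal protein messages are short, abundant and stable, and vertebrate ones typically begin with a C followed by a run of pyrimidines, the 5′ terminal oligopyrimidine (TOP) motif, through which mTOR and LARP1 control their translation. Their abundance in the germ line has also left the mouse genome with many retrocopies, intronless copies made from the processed message.

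The start of the message is shown first because the TOP motif is the family's regulatory signature. The RefSeq promoter table (build GRCm38.p6) held 76 entries for 64 of the 84 members. A C followed by at least 4 pyrimidines lay exactly at the annotated start, on the gene's strand, in 13 of these 64 genes, or 20.3%, against 813 of 27025 genes in the whole table, or 3.01%. Allowing the run to begin anywhere from 5 bases before to 10 bases after the annotated start gave 35 members, or 54.7%, against 27.7% of all genes. These shares describe annotated starts, not starts measured in these cells. The windows below run from 15 bases before the annotated start to 15 bases after it, with the pyrimidine run that begins at the start in capitals. The genes encode proteins of the large subunit (Rpl28, Rpl35a, Rpl38), the small subunit (Rps6, Rps15a, Rps18, Rps27) and the stalk (Rplp2).
Rpl28 (chr7:4792950-4792980, plus strand): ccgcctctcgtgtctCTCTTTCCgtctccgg
Rpl35a (chr16:33056467-33056497, plus strand): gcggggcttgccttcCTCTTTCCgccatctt
Rpl38 (chr11:114668565-114668595, plus strand): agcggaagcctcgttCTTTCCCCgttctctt
Rps6 (chr4:86857352-86857382, minus strand): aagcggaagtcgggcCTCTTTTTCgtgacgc
Rps15a (chr7:118116132-118116162, minus strand): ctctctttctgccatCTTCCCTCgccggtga
Rps18 (chr17:33955650-33955680, minus strand): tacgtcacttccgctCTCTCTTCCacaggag
Rps27 (chr3:90213633-90213663, minus strand): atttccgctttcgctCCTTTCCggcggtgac
Rplp2 (chr7:141447636-141447666, plus strand): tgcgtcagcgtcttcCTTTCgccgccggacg

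The second set of sequences bears on how the members could be counted. A search of every member's coding transcripts against all annotated transcripts (at least 98% identity over at least 80% of the other transcript and 150 bases) found 265 near-identical transcripts of 257 other genes, belonging to 67 members, and 234 of these transcripts are annotated as processed pseudogenes. Only 27 of the 265 were identical to the member over the whole aligned stretch. Of the 24 that reached a mean of 40 TPM in either quantification (transcript abundance scaled for transcript length and library size), 17 were identical and 22 spanned the member's whole coding sequence. Reads from inside such a stretch fit both genes equally well. The coding sequences below, with start and stop codons in capitals, are shared letter for letter by a member and a copy on another chromosome. They are Rpl41 and Gm10076, and Rps28 and Gm10443. For Rps12 and Rps12-ps3 the first 90 of 399 shared coding bases are printed, with the start codon in capitals.
Rpl41: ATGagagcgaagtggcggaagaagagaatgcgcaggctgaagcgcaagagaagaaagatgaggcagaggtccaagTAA
Rps28: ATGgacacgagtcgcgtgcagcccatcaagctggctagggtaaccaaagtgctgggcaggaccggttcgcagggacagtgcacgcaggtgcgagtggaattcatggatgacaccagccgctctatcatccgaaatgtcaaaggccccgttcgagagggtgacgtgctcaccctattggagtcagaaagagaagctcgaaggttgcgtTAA
Rps12: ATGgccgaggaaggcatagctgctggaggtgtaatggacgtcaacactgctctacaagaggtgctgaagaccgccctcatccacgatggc

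Other copies differ from their member by a single coding base within the aligned stretch. In the pairs below that base is in capitals, within 31 bases of coding sequence. Counting from 1 at the A of the member's start codon, the substitutions are G324A between Rps20 and Gm4332, C253T between Rpl23 and Gm9794, and G249A between Rpl37 and Rpl37rt.
Rps20: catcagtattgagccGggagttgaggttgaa
Gm4332: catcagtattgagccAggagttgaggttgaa
Rpl23: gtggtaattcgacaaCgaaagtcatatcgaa
Gm9794: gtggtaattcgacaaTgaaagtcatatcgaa
Rpl37: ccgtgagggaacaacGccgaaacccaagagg
Rpl37rt: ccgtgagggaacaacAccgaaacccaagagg

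Libraries held 23167140 to 41453162 expected counts on genes. All 10 macrophage markers, Lyz2, Adgre1 and Cd68 among them, were at 1 TPM or more in each library, with summed levels of 17144 to 20134 TPM (lowest and highest library). No marker of dendritic, T, B, NK, mast, erythroid or stromal cells was at 1 TPM in each library, and none of these lists summed to more than 3.01 TPM in any library. Of 7 neutrophil markers 2 passed, S100a8 (49.3, 5.58, 34.0 and 5.69 TPM in replicates 1 to 4) and S100a9 (71.4, 6.77, 61.7 and 5.10), high in replicates 1 and 3, while Ly6g was at 0 in all 4. Their part in the members' levels was not tested.

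Ribosomal protein messages stood far above the typical gene. Their summed TPM took 3.94%, 4.52%, 5.19% and 5.28% of replicates 1, 2, 3 and 4, a mean of 4.73% ± 0.628 (SD, n = 4), and 81 of the 84 members were at 1 TPM or more in each library. Their mean TPM had a median of 494, against 17.2 over the 10407 genes that reached 1 TPM in each library. All 77 members of the standard set were detected, and 76 of them held at least 100 TPM in each library. Of expected counts, which are not scaled for length, they took less: 1.11%, 1.27%, 1.48% and 1.46%. In bulk RNA, fewer cells of a type and less RNA per cell cannot be told apart.

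Among large-subunit genes the median of the mean TPM was 439, and among small-subunit genes 580. Small-subunit levels ran from 269 TPM for Rps16 to 3348 for Rps24, whose protein takes part in processing of the small subunit's RNA. Large-subunit levels ran from 57.2 for Rpl5 to 1316 for Rpl41, which encodes the smallest protein of the ribosome. Across the 77 standard members the highest mean was 58.5 times the lowest, yet 59 lay within 2-fold of their median of 522 TPM. As a description across genes, TPM was lower for longer messages (Pearson r of log2 TPM with log2 effective length -0.57, Spearman rho -0.62, n = 77 members that share the same 4 libraries). TPM is itself divided by effective length, and expected counts had the opposite sign (Pearson r 0.41, Spearman rho 0.42).

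**Figure D1:**
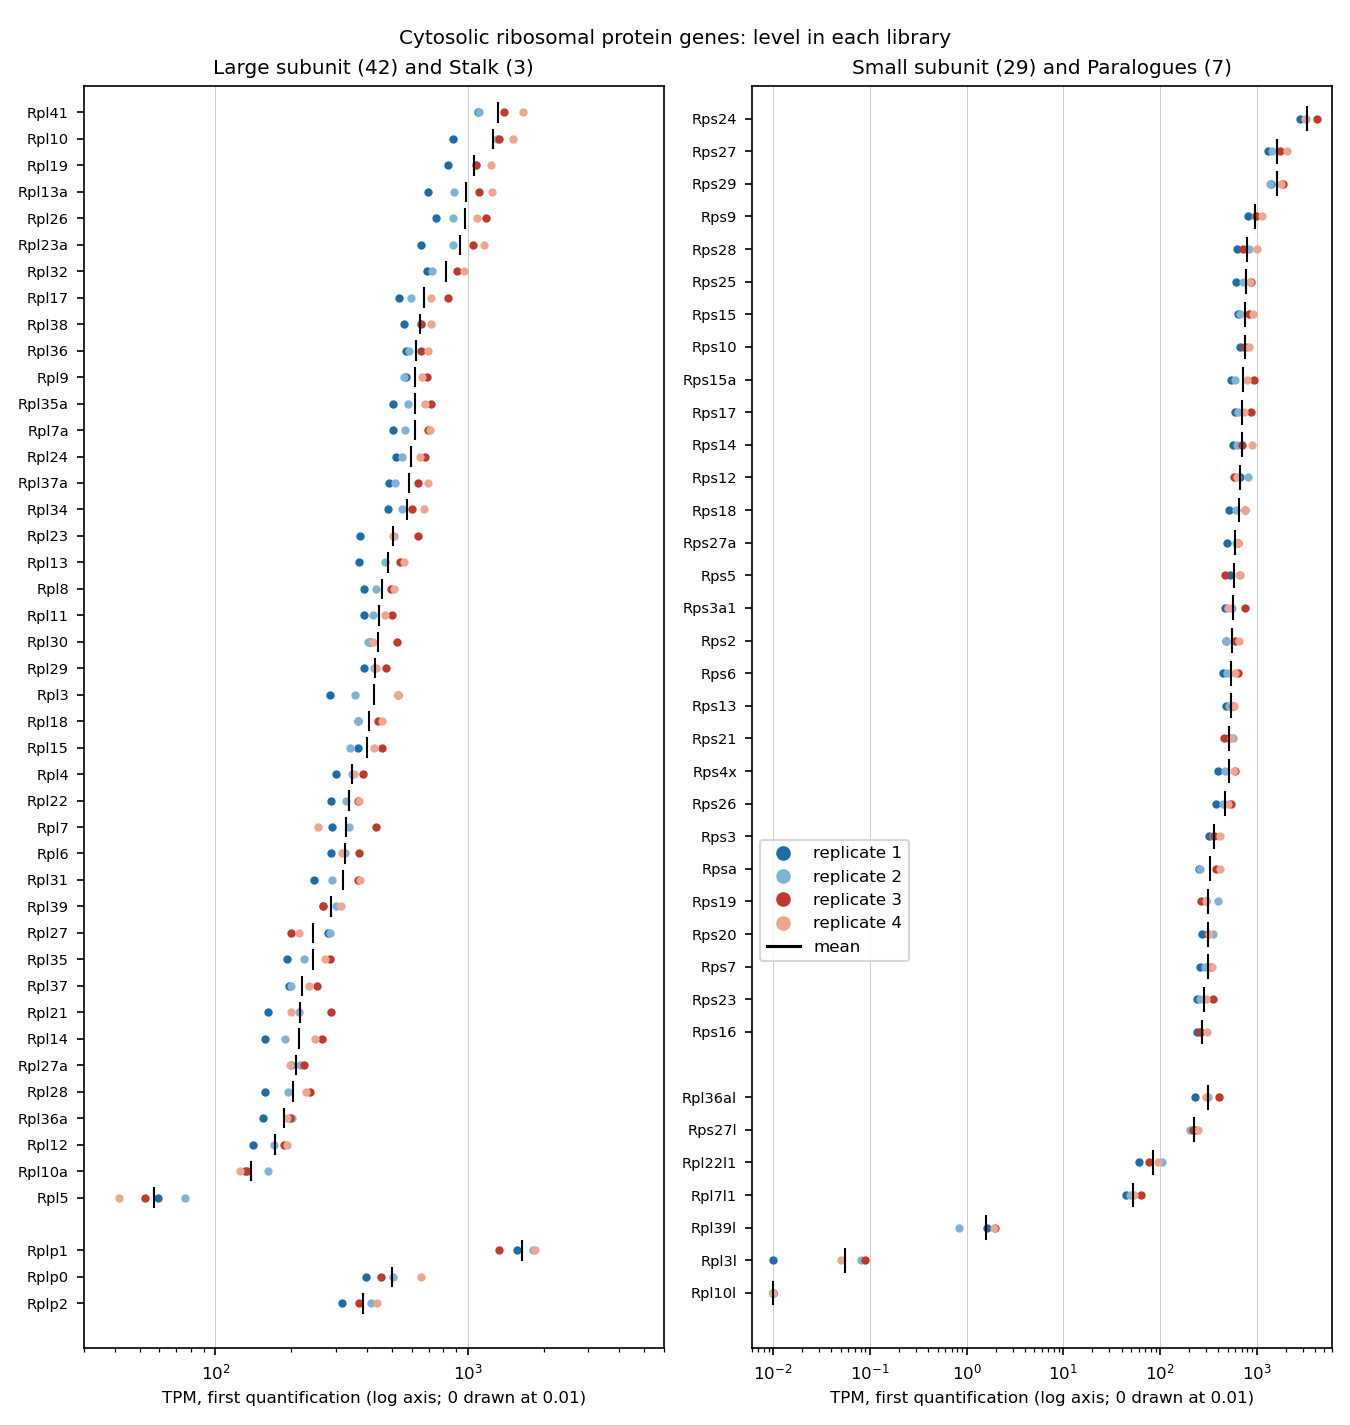
TPM of 81 members in each library (first quantification, log axes), large-subunit and stalk genes on the left and small-subunit genes and paralogues on the right; points are replicates and black ticks their means. A value of 0 is drawn at 0.01. Most standard members sit within 2-fold of 522 TPM, with Rps24 at the top (3348) and Rpl5 at the bottom (57.2), and Rpl10l is at 0.

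The 5 highest standard members were Rps24, Rplp1, Rps27, Rps29 and Rpl41. Rps24 (chromosome 14, 24487125 to 24496959) had 2819, 3197, 4194 and 3181 TPM in replicates 1 to 4. Every value of Rps24 was above every value of the other members, and its lead rested on a mean of 20858 expected counts. Rps27 (chromosome 3, 90212522 to 90213651), a zinc-finger protein of the small subunit, had 1300, 1455, 1721 and 2049 TPM. Rps29, another small zinc-finger protein, had 1418, 1383, 1850 and 1770 TPM. Rpl41 had 1096, 1114, 1397 and 1655 TPM. The ranges of these last 3 genes overlapped, but Rpl41 was below Rps27 and Rps29 in each library. Rps27 and Rps29 changed places between libraries, so the order of that pair is not settled.

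The 5 lowest were Rpl5, Rpl10a, Rpl12, Rpl36a and Rpl28. Rpl5 (chromosome 5, 107900502 to 107909005), which binds 5S ribosomal RNA together with Rpl11, had 59.0, 75.7, 52.8 and 41.3 TPM. Its partner Rpl11 had 387, 421, 503 and 469 TPM, above Rpl5 in every library. Rpl10a had 130.5, 162, 133 and 126 TPM. Rpl12 (chromosome 2, 32961559 to 32965345), which sits at the base of the stalk, had 141, 170, 186 and 193 TPM. All 5 have near-identical copies, but so do 67 of the 84 members, the 5 highest among them. Rpl36a and Rpl28 had means of 187 ± 22.0 and 204 ± 36.1 TPM (SD, n = 4).

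The stalk genes were unequal. Rplp1 had 1573, 1818, 1327 and 1844 TPM, and its binding partner Rplp2 had 317, 415, 372 and 436 TPM. Rplp0, the scaffold that holds both, had 396, 507, 454 and 656 TPM. Rplp1 was above both Rplp0 and Rplp2 in each library, without overlap. Rplp0 was also above Rplp2 in each library, though their ranges over the libraries overlapped.

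Paralogues fell into an expressed and a silent group. Rpl36al had 232, 317, 406 and 301 TPM beside 154, 202, 198 and 193 TPM for Rpl36a, and exceeded it in each library. However, Rpl36a-ps2, a copy identical to Rpl36a, held 63.3, 135, 306 and 358 TPM. With copies added, the order of the mean TPM turned, to 403 ± 154 TPM for Rpl36a and 314 ± 71.3 for Rpl36al (SD, n = 4). In replicate 1 it did not turn. Nor did it turn in mean expected counts, which were 1848 for Rpl36al, 903 for Rpl36a and 400 for the copies of Rpl36a. The effective length of Rpl36a-ps2 was 79.7 bases, against 222 for Rpl36a. Rps27l, a p53-responsive form in other settings, had 225 ± 19.1 TPM beside 1631 ± 328 TPM for Rps27, and Rpl22l1 had 84.8 ± 20.0 beside 339 ± 38.9 TPM for Rpl22 (SD, n = 4). Rpl7l1 had 52.6 ± 7.84 TPM beside 329 ± 76.4 TPM for Rpl7. The remaining 3, known as tissue-restricted forms, were at or near 0. Rpl39l, known from male germ cells, had 1.58 ± 0.52 TPM against 287 ± 24.4 TPM for Rpl39. Rpl3l, the form of striated muscle, had 0, 1, 2 and 1 expected counts, against 283.6 TPM or more for Rpl3 in every library. Rpl10l, a testis retrogene of Rpl10, had a count of 0 in all 4 libraries, which allows up to 3 counts, or 0.113, 0.129, 0.0724 and 0.0858 CPM (counts relative to the library total) across replicates 1 to 4, while Rpl10 had 878, 1312, 1327 and 1515 TPM.

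Copies carried a sizeable part of what the members and copies hold together. Entries named as pseudogenes of a member (its symbol followed by -ps) held 4.23% ± 0.212 (SD, n = 4) of the TPM summed over them and the members. Only 103 of the 257 near-identical genes carry such a name, and all near-identical copies together held 11.9% ± 0.313 of the TPM but 5.72% ± 0.130 of the expected counts. By name, the pseudogene share was highest for Rps23 (65.2%), Rpl31 (59.8%), Rpl36a (53.7%), Rpl27 (42.6%) and Rpl10a (25.7%). By sequence, the copies took over 25% for 11 members, and most for Rpl5. There a transcript of Gm15500 (chromosome 7) held 312 ± 46.5 TPM and another transcript of that gene 18.7 TPM. All 4 copy transcripts together held 85.3%, so that the sum of Rpl5 and its copies was 388 ± 64.5 TPM. That sum moved Rpl5 from rank 80 to rank 59 of the 84 members.

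Other families were divided in the same way. Gm7536 held 481 ± 159 TPM beside 209 ± 13.1 for Rpl27a, Rps23-ps1 held 539 ± 143 beside 287 ± 50.03 for Rps23, and Rpl31-ps8 held 474 ± 91.7 beside 319 ± 61.9 for Rpl31. In mean expected counts Rpl27a stood above Gm7536 (3992 against 2026), and Rpl31 above Rpl31-ps8 (3668 against 1320). These copies have shorter effective lengths, 184 bases against 870 for Rpl27a and 125 against 499 for Rpl31. Some large values rested on little sequence. Gm14303 has 171 bases, with an effective length of 5.74 bases, and its 421 ± 383 TPM came from a mean of 53.4 expected counts. Gm10443 has 210 bases, with an effective length of 16.6, and its 732 ± 403 TPM came from 246 counts. By contrast the 1089 ± 307 TPM of Gm10076 rested on 3125 counts. With copies added, the standard members drew together: the highest sum was 18.1 times the lowest instead of 58.5, 65 instead of 59 lay within 2-fold of the median, and the SD over members of log2(TPM + 0.1) was 0.77 instead of 0.91.

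**Figure D2:**
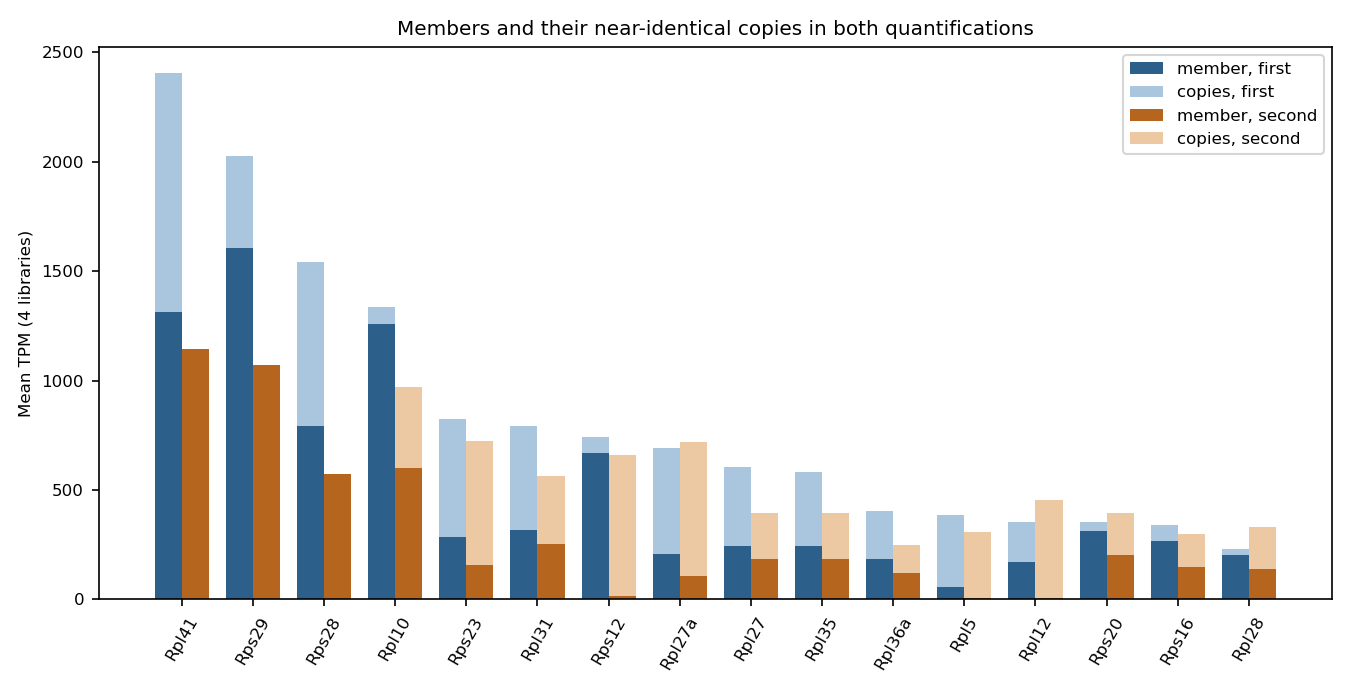
Mean TPM (4 libraries) of the 16 members whose copies together reached at least 150 TPM over both quantifications, with the copies stacked in a lighter shade; blue bars are the first and orange bars the second quantification. Rps12, Rpl12 and Rpl5 are almost all copy in the second, whereas the copies of Rpl41, Rps28 and Rps29 hold TPM almost only in the first (45.3%, 48.5% and 20.8% of the sum, against at most 0.12% in the second).

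Both quantifications used the same reads, aligned to transcripts beforehand in the first and taken unaligned in the second, so a difference between them is one of method. All 82 members tested had lower TPM in the second, where only 1967 of all 12299 genes tested had a positive difference. The median log2 difference of log2(TPM + 0.1) was -0.47, against -0.29 for all genes. On CPM in place of TPM, 5 of 81 members had a positive difference, and the median was -0.09, against -0.03 for all genes. In TPM no member was called higher and 7 were called lower (limma, adjusted p up to 0.05 and a log2 difference of at least 1), where 7.68% of all genes were called higher and 3.22% lower. The 7 were Rps12, Rpl12, Rpl5, Rpl10, Rpl10a, Rps15a and Rpl27a. These p-values measure only how alike the difference was across 4 libraries, and the largest adjusted p among the 7 was 4.52e-11 (limma). Centred on the median of all genes, a setting chosen after seeing the data, or computed on CPM in place of TPM, 3 were called: Rps12 (-5.09 and -4.83), Rpl12 (-4.43 and -4.70) and Rpl5 (-2.77 and -2.87).

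Rps12, a protein of the small subunit, fell furthest. It had 665, 814, 584 and 619 TPM in the first quantification and 13.4, 14.9, 20.2 and 15.6 in the second, a log2 difference of -5.38 ± 0.147 (SE, n = 4, limma). Its copy Rps12-ps3, annotated as protein coding on chromosome 19, went from 31.2 to 644 TPM, and the sum over Rps12 and its copies went from 740 to 661. Rpl12 had 173 TPM in the first and 5.60, 5.59, 7.25 and 7.33 in the second, a log2 difference of -4.73 ± 0.148 (SE, n = 4, limma). The copy Gm10275 of Rpl12 on chromosome 10 rose from 143 to 406 TPM, and the sum went from 356 to 453. Rpl5 had 5.35, 5.95, 11.7 and 5.07 TPM in the second (log2 difference -3.06 ± 0.146, SE, n = 4, limma), and its sum went from 388 to 310. In these 3 genes the first and second values did not overlap in any library, while the log2 differences of the sums were -0.16, 0.32 and -0.36.

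The other 4 calls were near the threshold. Rpl10, which completes the peptidyl transferase centre, had a log2 difference of -1.11, and Rpl10-ps3 on chromosome 9 went from 76.5 to 367 TPM. Rpl10a had -1.08, Rps15a -1.06 and Rpl27a -1.02. Rpl27a was not called without replicate 1 (-0.92) or replicate 2 (-0.88), nor Rps15a without replicate 4 (-0.99), and Rps23 was called as well without replicate 3 (-1.03) or replicate 4 (-1.02). For Rps15a the copies held under 1% in both quantifications and the sum also had -1.06. There the TPM difference lay within the gene. Rps15a-203, a transcript of 250 bases, went from 500 to 146 TPM, while Rps15a-201, of 640 bases, went from 192 to 177. On CPM, which is not scaled for length, the log2 difference of Rps15a was only -0.11. For Rpl10, Rpl10a and Rpl27a it was -0.78, -0.74 and -0.72. The part of length scaling was not tested.

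The smallest differences were those of Rpl7l1 (-0.08), Rpl21 (-0.20), Rpl41 (-0.20), Rpl39l (-0.22) and Rpl11 (-0.27), none called. Each of these 5 is above 0 when centred on the median of all genes. For Rpl41 the sum over copies had -1.07, as Gm10076 went from 1089 to 0.92 TPM. Gm10443 and Gm14303, copies of Rps28 and Rps29, were listed at 0 in the second quantification, and Rps6-ps4 went from 68.8 TPM to a mean of 7.99e-06. Rps6, whose protein is phosphorylated downstream of mTOR, had 544 ± 89.2 TPM in the first and 449 in the second. Over the 82 members the SD of the log2 difference was 0.78 for the member alone and 0.25 for the member with its copies, and the lowest value changed from -5.38 (Rps12) to -1.38 (Rps28). The deposited posterior SD of the expected count was at most 3.41% of the count among all members with a count (Rpl10a). It describes counts within the first quantification, so it does not measure the difference between the 2 quantifications.

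**Figure D3:**
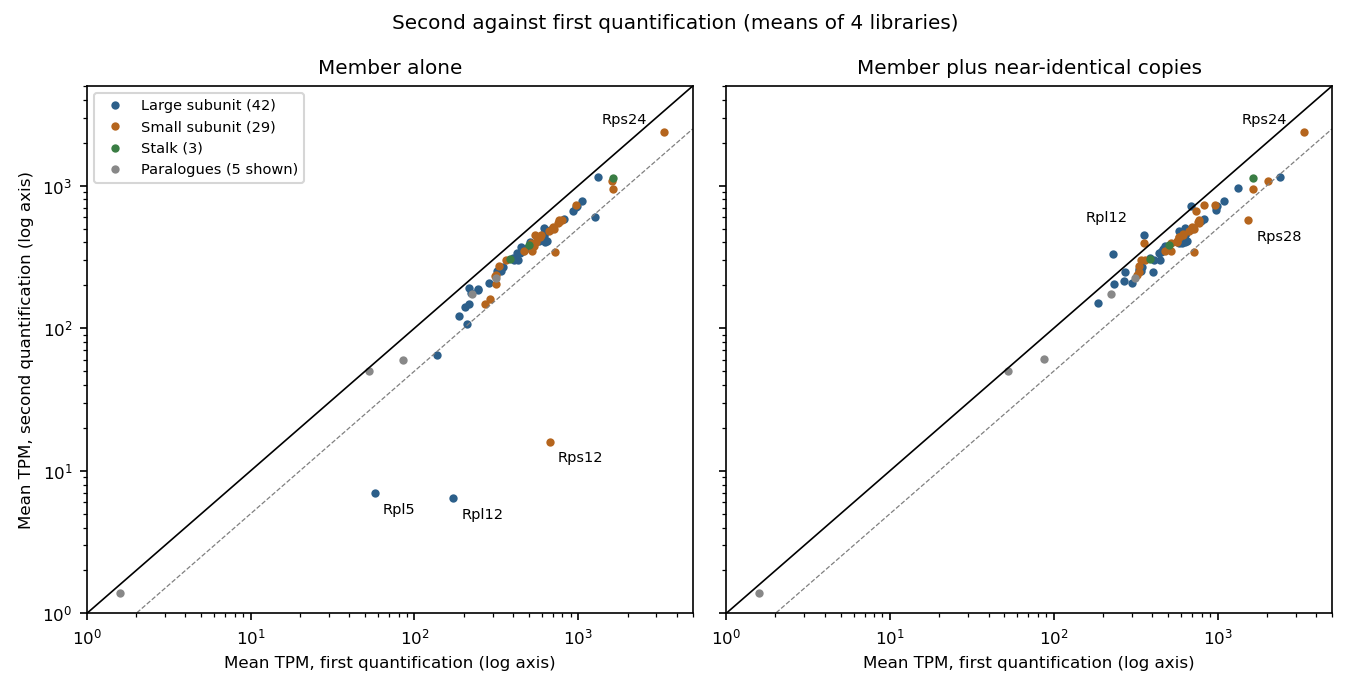
Mean TPM in the second against the first quantification (log axes, 4 libraries), for each member drawn alone on the left and summed with its near-identical copies on the right; the solid line marks equality and the dashed line a 2-fold lower value. Rpl10l and Rpl3l are not drawn. Rps12, Rpl12 and Rpl5 lie far below the rest on the left (16.03, 6.44 and 7.02 TPM in the second) and join them on the right.

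No member was called as varying across the 4 libraries. Of 81 tested, 0 varied beyond the trend of genes at the same level (edgeR, deviance against a trended dispersion, adjusted p up to 0.05), where 2.61% of 11679 genes did, and 0 had an unadjusted p under 0.05, where 7.79% of all genes did. DESeq2's dispersion trend also called 0 members, and 347 genes in all. Among the smallest unadjusted p-values were those of Rpl3 (0.149) and Rpl27 (0.169), each with an adjusted p of 1.00 (edgeR). Members with a mean of at least 10 TPM had a median coefficient of variation of 16.02%, where the median over all genes at that level was 15.2%. The neutrophil genes S100a8 and S100a9 were both among the genes called. A p above the threshold does not show that the members' levels were alike.

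By the deposited records, replicates 1 and 2 each came from 6 read files, and replicates 3 and 4 from 4. The same pairs differ in depth, with 26613690 and 23167140 expected counts in replicates 1 and 2 and 41453162 and 34946569 in replicates 3 and 4. Read files and depth therefore cannot be told apart. In the comparison of these pairs no gene was called by edgeR's quasi-likelihood test (0% of 12667 higher and 0% lower), and so 0 of 82 members. DESeq2 called 17 genes higher and 86 lower, edgeR without the filter on low counts 9 and 26, edgeR on the second quantification 7 and 70, without replicate 2 it called 2 and 11, and without replicate 3 it called 0 and 2, each with 0 members. At an unadjusted p under 0.05 stood 9 members, against 7.08% of all genes. Leaving out replicate 1, 2, 3 or 4 gave 1, 2, 4 and 7 members, against 3.38%, 9.94%, 5.002% and 5.80% of all genes. Of 82 members, 63 had a positive log2 difference with fewer read files, where 53.7% of all genes did, and the median was 0.22 against 0.03 for all genes. In normalised CPM, replicates 3 and 4 both lay above replicates 1 and 2 for 49 of 81 members, where 21.4% of all genes did, and both lay below for 9, where 17.4% did. Mitochondrial genes held 1.94%, 2.79%, 4.77% and 3.99% of TPM in replicates 1 to 4 and ribosomal RNA genes outside the mitochondrial genome 7.14%, 2.73%, 1.29% and 2.69%. The part of these RNAs, or of depth, in the members' shift was not tested.

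Rpl3 and Rpl31 were among the members with large upward differences. Rpl3, beside the peptidyl transferase centre, had 284 and 358 TPM in replicates 1 and 2 and 530 and 528 in replicates 3 and 4 (log2 difference 0.67 ± 0.18 SE, adjusted p 0.64, edgeR). Rpl31, whose protein lies at the exit of the peptide tunnel, had 246 and 290 against 367 and 373 TPM (0.55). The pairs did not overlap in either gene, but neither passed the adjusted threshold. Downward, Rpl27 had 279 and 283 against 200 and 214 TPM (-0.55). Its identical copies Gm11518 and Rpl27-ps3 rose, each with 110 and 132 against 250 and 233 TPM. In the second quantification the log2 difference of Rpl27 was -0.27. How far the placing of shared reads set the fall of Rpl27 was not tested. The log2 differences of the stalk gene Rplp2 and of Rps20 were -0.51 and -0.45.

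**Figure D4:**
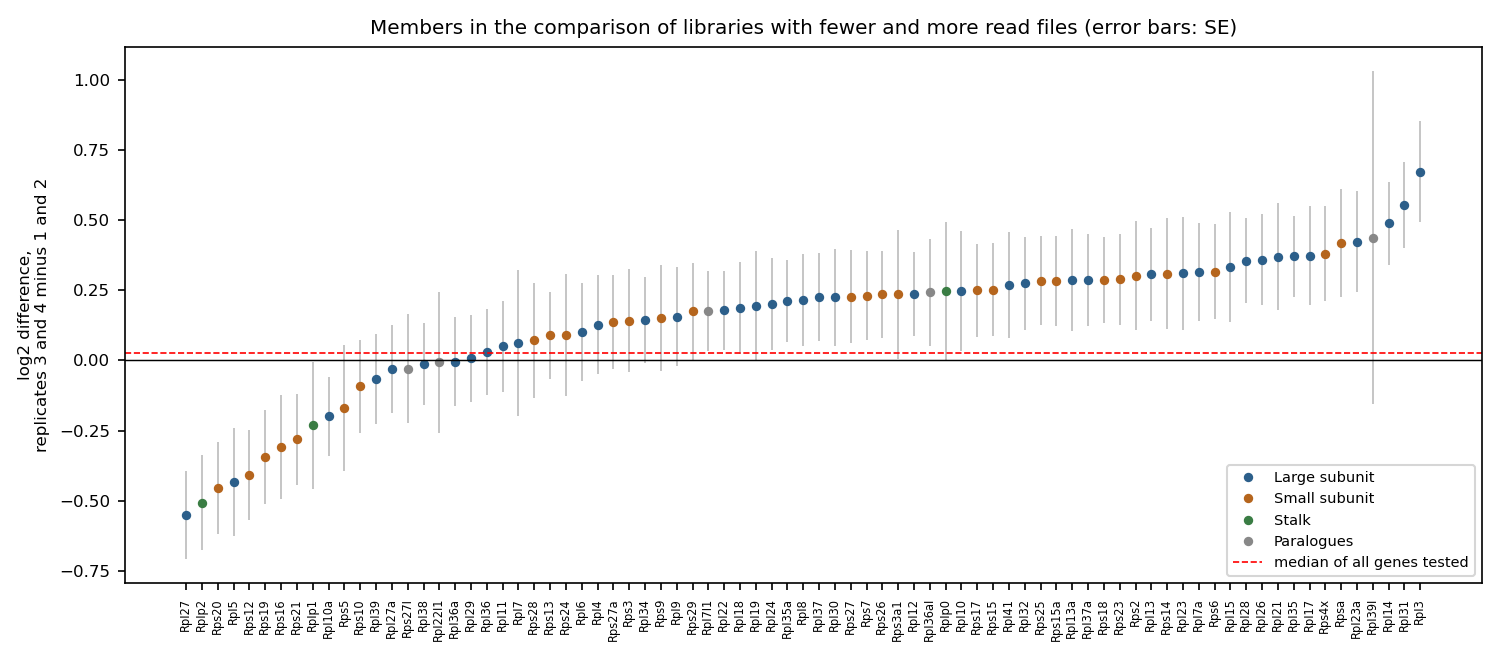
log2 difference between replicates 3 and 4 (4 read files) and replicates 1 and 2 (6 read files) for 79 of the 82 members tested, in order, with SE bars and colours by role; the red dashed line is the median of all genes tested (0.03). Of those drawn, 61 lie above 0, from Rpl27 (-0.55) at the left to Rpl3 (0.67) at the right, and none passed the adjusted threshold.

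Most of the members' TPM lay on transcripts annotated as protein coding: 95.7% in the first and 95.3% in the second quantification, with 2.41% on transcripts annotated for nonsense-mediated decay and 1.47% on retained introns in the first. Of the 81 members with a mean of at least 10 TPM, 70 had at least 90% on coding transcripts. Rps20 had the least, 12.7%: Rps20-201, a transcript of 582 bases annotated as a retained intron, held 223, 296, 281 and 288 TPM and the coding Rps20-203 a mean of 39.8. Rps16 followed with 20.7%, and Rps16-203 and Rps16-202, both annotated as retained introns, held means of 148 and 64.9 TPM. In Rpsa, the laminin-receptor protein of the small subunit, Rpsa-206, annotated for nonsense-mediated decay, held 131, 154, 275 and 297 TPM, and the coding Rpsa-201 held 119, 104.5, 104 and 121. The coding share of Rpl5 was 36.8%. Shares in the second quantification were 12.6%, 15.4%, 22.4% and 31.7% for Rps20, Rps16, Rpsa and Rpl5, below the first in each. These classes are labels of the annotation, and they rest on how reads were divided among overlapping transcripts of 1 gene.

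**Figure D5:**
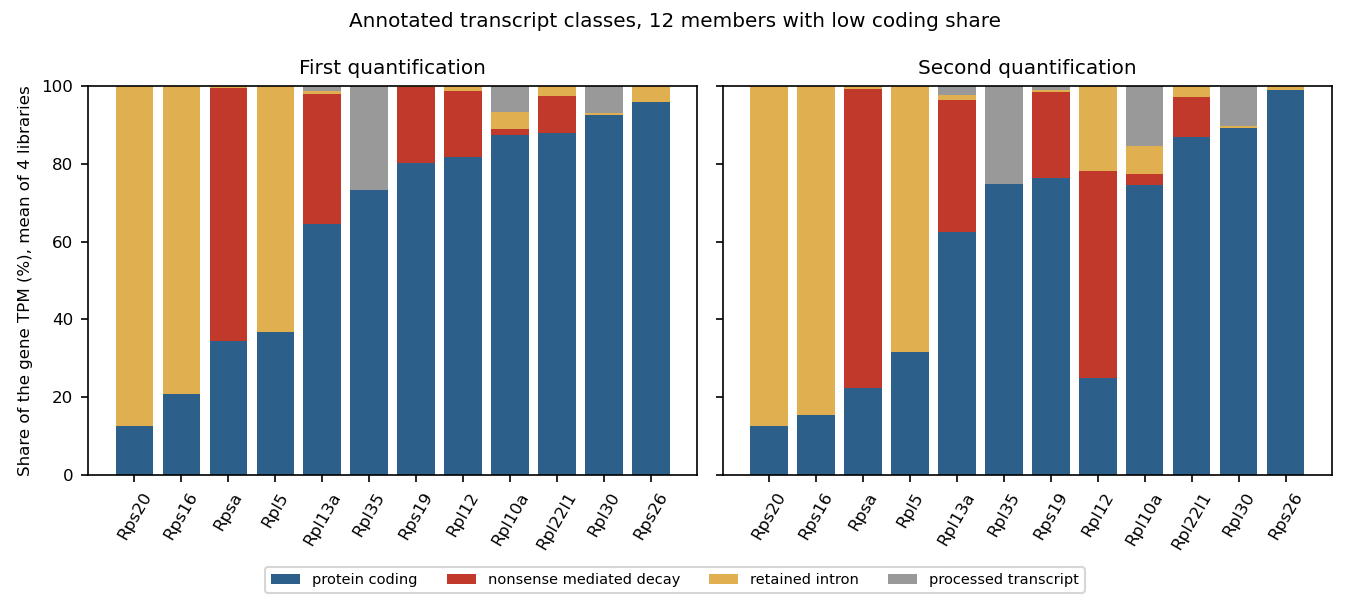
Share of each gene's TPM (%, mean of 4 libraries) on transcripts of each annotated class, for 12 members with a low coding share, in the first (left) and second (right) quantification. Rps20 and Rps16 are mostly retained intron in both, Rpsa is mostly annotated for nonsense-mediated decay, and Rpl12 falls from 81.6% coding to 24.8%.

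Rps24 is known for isoforms that differ at the last coding bases. Rps24-201 held 3049 ± 563 TPM, or 91.1% of the gene, and Rps24-210 held 205 ± 21.2 TPM, or 6.13%; in the second quantification the shares were 90.8% and 6.25%. The last 45 bases of each coding sequence are given with the stop codon in capitals, and the total coding length is 393 bases for the first and 402 for the second.
Rps24-201: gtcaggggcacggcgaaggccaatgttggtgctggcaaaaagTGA
Rps24-210: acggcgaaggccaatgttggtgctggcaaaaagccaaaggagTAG
Rps27a, which encodes a ubiquitin fusion, had 83.8% on Rps27a-202, and Rpl41 had 69.5% on Rpl41-203 in the first quantification but 73.3% on Rpl41-201 in the second.

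Other genes of translation were read beside the members. Fau, which encodes a ribosomal protein of the small subunit, had 676 ± 59.9 TPM (SD, n = 4), inside the range of the standard members. The 19 measured elongation and other TOP genes were all detected, 0 varied between libraries (1 at an unadjusted p under 0.05, edgeR) and 16 had a positive difference with fewer read files (median 0.12), as did 56 of the 78 mitochondrial ribosomal protein genes (median 0.13), 11 of the 20 assembly genes (median 0.02) and 53.7% of all genes. The elongation factor Eef1a1 had 2784 ± 329 TPM and Tpt1, another TOP message, 1732 ± 355. The 20 ribosome assembly genes were also all detected, at a median of 17.5 TPM, from 2.81 for the RNA polymerase I subunit Polr1b to 94.5 for nucleolin (Ncl). Proteins of the mitochondrial ribosome, 78 genes encoded in the nucleus, were all detected at a median of 30.97 TPM, and 1 of them was called lower between the quantifications. No gene of either list varied between libraries past the threshold (0 assembly genes and 1 mitochondrial ribosomal gene at an unadjusted p under 0.05, edgeR).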

How the data were processed

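polyA RNA-seq of 4 libraries of 1 group was used; the labels give them as biological replicates, so SDs and p-values measure the spread between these libraries. The authors deposited, per library, gene and transcript tables with expected counts (estimated, not normalised) and TPM from transcriptome alignments (the first quantification), and a transcript table with estimated counts and TPM made directly from the reads (the second), on mm10 with GENCODE M21 per the file records; the programs are not given in the sources used here. The labels give a fragment size range of 250 to 400, so transcripts near that length have short effective lengths and uncertain TPM. Gene totals of expected counts reached 26613690, 23167140, 41453162 and 34946569 for replicates 1 to 4; floors for a count of 0 cover counting error only.

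Members were taken by symbol and a coding transcript. Members, lists and named genes (the 5 highest and lowest levels, stalk genes, paralogues with partners, and the extremes of each comparison) were chosen with earlier results of these data known. Python 3.11.15 (numpy 2.4.6, pandas 2.3.3, matplotlib 3.10.9) and R 4.3.3 were used. Counts were rounded and tested in edgeR 4.0.16 after filterByExpr and TMM, across all genes, with Benjamini-Hochberg adjustment: deviance from an intercept-only fit against a trended dispersion (3 degrees of freedom), and the quasi-likelihood test of fewer against more read files. Quantifications were compared on the 141767 shared transcripts summed per gene (86 genes absent from the second table were left out) by limma 3.58.1 on per-library differences of log2(TPM + 0.1), for genes at a mean of at least 1 TPM. DESeq2 1.42.0, other scalings, pseudocounts, filters and each library left out were alternatives. Copies were found by megablast against GENCODE M21 transcripts, a step chosen after seeing the data. Tests were checked on simulated data. Coordinates are mm10, promoter windows RefSeq GRCm38.p6. Results for a few genes are not reported here.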

Additional observations from a re-analysis of the deposited data

Results flagged for a closer look

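In 2 of 88 sets of 4 library values examined, 1 library stood apart: its gap to the nearest other, divided by the whole range, was above Dixon's 95% critical value (0.849 for Rpl30 and 0.838 for Rps27a). Chance flags about 1 in 20 such sets. Rpl30, a large-subunit protein, had 522.6 TPM in replicate 3 and 404 to 422 in the others. Rps27a, the ubiquitin fusion of the small subunit, had 493 TPM in replicate 1 and 615 to 638 in the others.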

How the results depend on the processing

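No paired analysis was possible because there is 1 group, so no groups share replicate numbers; the quantifications were compared within each library. The members' share of 4.73% was 1.33% of expected counts, 3.33% in the second quantification and 5.37% with near-identical copies, and 4.55% to 4.996% with each library left out. The median over members of log2(TPM + 0.1), 8.88, was 8.44 in the second quantification, 7.13 in CPM and 9.11 with copies (8.83 to 8.97 with each library left out). Its SD over all 84 members, 2.25, was 2.33 in the second quantification, 1.86 and 2.58 with pseudocounts of 1 and 0.01, 1.02 for members at 1 TPM in each library, 1.99 in CPM and 0.92 for the 77 members outside the paralogue list (2.24 to 2.26 with each library left out). Members lower in the second quantification numbered 3 instead of 7 in CPM and 3 when centred on the median of all genes (6 to 8 with each library left out). Rpl41 reversed to 0.62 in CPM, and centring put Rpl41 at 0.089, Rpl11 at 0.024, Rpl39l at 0.071, Rpl21 at 0.091 and Rpl7l1 at 0.21; the cause was not tested. The named pseudogene share of 4.23% was 2.11% in counts, 7.64% in the second quantification and 11.9% for copies found by sequence (4.14% to 4.31% with each library left out). Counts of members called as varying between libraries or between read-file groups were 0 in every alternative run (edgeR and DESeq2). With 4 libraries of 1 group, levels have 3 degrees of freedom.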
